A study of Mus musculus with 9 samples.

Results

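The 48 genes described here encode the machinery that copies DNA in S phase. They are listed by name. The list begins with origin recognition and the MCM helicase and goes on to the DNA polymerases, the sliding clamp and nucleotide synthesis. It ends with histone deposition and the E2F transcription factors E2f1 and E2f2. The genes were chosen with earlier results of these data known, and each is read from its transcript of highest total count. All 48 were found by their symbol among the 25160 genes of the deposited count table, and all 48 passed the filter on low counts that left 11256 genes for testing. Bulk mRNA sequencing had been performed on spleen cells of C57BL/6 mice, sorted as naive CD4+ T cells and then cultured, with 3 libraries in each of 3 groups. In the first group, wild-type cells were cultured on anti-CD40L antibody (WT anti-CD40L). In the second, cells from mice lacking CD40L in their T cells, whose genotype label reads "cre", were cultured on isotype antibody (labelled KO). In the third, wild-type cells were cultured on isotype antibody (WT isotype). All 9 cultures also received 1 µg/ml of plate-coated antibody to CD3e, a signalling chain of the T cell receptor complex, and the anti-CD40L or isotype antibody was coated at 19 µg/ml. The sources used here do not give the driver of the Cre recombinase, the ages of the mice or the length of the culture.

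A cell copies its DNA once per division. In G1 the origin recognition complex (ORC), with Cdc6 and Cdt1, loads MCM helicase rings onto DNA, a step called licensing; Cdc45 and the GINS complex then turn the ring into the active CMG helicase. DNA polymerase alpha with primase starts each strand, polymerases delta and epsilon extend it on the PCNA clamp, and ribonucleotide reductase makes the deoxynucleotides. Many of these genes are transcribed under E2F factors that the retinoblastoma proteins hold back in resting cells. Naive T cells are such resting cells, and stimulation through the T cell receptor brings them into G1 and S phase.

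Levels are given as CPM, the usual depth-scaled count, over library sizes scaled by the trimmed mean of M-values, in the order of replicates 1 to 3. A gene is called when its Benjamini-Hochberg (BH) adjusted p, over all 11256 genes, is below 0.05 in the quasi-likelihood F test of edgeR. Total counts ran from 5316482 to 15565711 per library. The lowest total belonged to WT anti-CD40L replicate 3, which had a count for 11673 genes against 14290 to 17428 in the others and stood apart on the first principal component. Cd40lg, which encodes CD40L, had 109, 132 and 163 CPM in WT anti-CD40L, 145, 136 and 150.2 CPM in the group labelled KO and 142, 154 and 189 CPM in WT isotype. Its level therefore did not separate the libraries labelled KO from WT isotype (log2 fold change -0.17, SE 0.13; BH-adjusted p = 0.935, edgeR). The sources used here do not say which part of the gene was deleted, and counts outside that part check nothing.

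The labelled cell type was checked against its markers. All 9 T cell markers, Cd3d, Cd3e, Cd3g, Cd247, Cd4, Cd5, Cd28, Lck and Thy1, were present in every library, with summed levels of 4415 to 4615 CPM in WT anti-CD40L, 4238 to 4635 in libraries labelled KO and 4447 to 4809 CPM in WT isotype. The 9 B cell markers summed to 1.72 to 16.1 CPM in WT anti-CD40L, 8.86 to 21.4 in libraries labelled KO and 13.3 to 39.9 CPM in WT isotype. Of 8 tested, 2 fell, Fcer2a among them, in WT anti-CD40L against WT isotype. There 3 of the 8 had a log2 fold change above 0 and 5 below. In WT anti-CD40L replicate 3, 6 of the 9, Ms4a1, Pax5, Cd22, Fcer2a, Cr2 and Fcmr, were at 0. The 9 myeloid markers summed to 2.69 to 6.12 CPM in WT anti-CD40L, 5.12 to 17.7 in libraries labelled KO and 7.69 to 8.36 CPM in WT isotype. Of 3 tested, Itgam and Fcgr3 fell in WT anti-CD40L against WT isotype, and Csf1r had at most 3 counts in any library. In WT anti-CD40L replicate 3, the library of lowest total, 8 of the 9 myeloid markers were at 0. S100a8 and S100a9 had 25 and 43 counts in replicate 1 labelled KO and 0 in the other libraries. Against the libraries labelled KO, WT anti-CD40L had no B cell marker called and 1 of 3 myeloid markers called lower. In libraries labelled KO against WT isotype no marker of either list was called. There 2 of 8 B cell markers lay lower without overlap and none higher, against 7.62% and 7.61% of all genes. The log2 fold changes of that list ran both ways, from -4.28 to 1.79, with 4 above 0, 4 below and a median of -0.05. Some B cell and myeloid markers thus differ between groups compared below, and their part in the results was not tested. In bulk RNA, fewer cells expressing a gene and less RNA per cell cannot be told apart.

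The promoters of a few members are shown first, because E2F binding elements are the sequence feature best known in this gene family. Each window runs from 250 bases before to 50 bases after the start site and is credited to RefSeq on GRCm38.p6, 5′ to 3′ on the strand of the gene. Capitals mark a match to TTTCCCGC, TTTCGCGC, TTTGCCGC or TTTGGCGC on either strand. Mcm6 (chr1:128359656-128359955, minus strand), a subunit of the MCM ring, is shown for its 3 matches, and Mcm5 (chr8:75109259-75109558, plus strand), another ring subunit, for a pair that overlaps. Orc1 (chr4:108579204-108579503, plus strand), the largest ORC subunit, holds a single match close to its start site. Rrm1 (chr7:102441445-102441744, plus strand), the large subunit of ribonucleotide reductase, and Dut (chr2:125247265-125247564, plus strand), the enzyme that breaks down dUTP, are shown because both were called and neither window holds a match. The Dut and Orc1 windows lie inside the annotated genes, which begin at 125247248 and 108575705 respectively. Bases before those 2 gene starts were therefore not searched.
Mcm6: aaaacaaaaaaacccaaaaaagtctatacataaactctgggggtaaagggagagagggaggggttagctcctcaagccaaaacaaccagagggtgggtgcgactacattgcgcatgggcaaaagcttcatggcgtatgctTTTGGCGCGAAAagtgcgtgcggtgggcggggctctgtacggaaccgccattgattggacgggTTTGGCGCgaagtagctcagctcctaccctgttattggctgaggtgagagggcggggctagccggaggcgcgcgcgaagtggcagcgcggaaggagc
Mcm5: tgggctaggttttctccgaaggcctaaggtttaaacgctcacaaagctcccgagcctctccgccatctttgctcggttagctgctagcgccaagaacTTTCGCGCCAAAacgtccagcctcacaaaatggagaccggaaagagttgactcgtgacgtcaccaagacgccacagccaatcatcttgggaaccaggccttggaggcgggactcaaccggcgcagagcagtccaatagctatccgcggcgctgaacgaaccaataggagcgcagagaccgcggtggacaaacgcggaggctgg
Orc1: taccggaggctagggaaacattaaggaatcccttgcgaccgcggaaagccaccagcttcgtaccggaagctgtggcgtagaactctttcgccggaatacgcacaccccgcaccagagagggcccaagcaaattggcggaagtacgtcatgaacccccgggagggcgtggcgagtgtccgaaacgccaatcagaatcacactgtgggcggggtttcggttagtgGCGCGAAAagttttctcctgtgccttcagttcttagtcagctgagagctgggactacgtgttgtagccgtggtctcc
Rrm1: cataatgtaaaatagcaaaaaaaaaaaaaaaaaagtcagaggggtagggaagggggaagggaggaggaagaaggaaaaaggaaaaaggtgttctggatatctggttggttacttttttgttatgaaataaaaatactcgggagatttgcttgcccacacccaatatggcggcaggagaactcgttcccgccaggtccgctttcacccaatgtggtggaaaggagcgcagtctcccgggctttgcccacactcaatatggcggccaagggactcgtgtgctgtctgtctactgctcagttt
Dut: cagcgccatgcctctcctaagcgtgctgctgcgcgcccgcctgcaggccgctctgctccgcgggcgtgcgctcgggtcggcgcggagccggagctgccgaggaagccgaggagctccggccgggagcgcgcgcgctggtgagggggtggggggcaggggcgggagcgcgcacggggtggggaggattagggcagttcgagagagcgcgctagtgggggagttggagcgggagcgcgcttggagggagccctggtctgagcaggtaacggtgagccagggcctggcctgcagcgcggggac

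In Mcm6 the matches began 110, 106 and 47 bases before the start site, the first of them overlapping the next. In Mcm5 they began 153 and 149 bases before it and in Orc1 27 bases before it. A promoter window was found for 40 of the 48 members; Gmnn, Gins1, Gins2, Gins4, Pole, Mcm4, Rfc2 and Prim2 had none in the table used. These genes had 48 windows, some having several start sites. At least 1 E2F match was present in 16 of the 40 genes (40%), against 449 of 9006 tested genes with a window (4.99%). The 16 were Orc1, Cdc6, Cdt1, Mcm3, Mcm5, Mcm6, Mcm7, Gins3, Pola1, Pold1, Pold3, Pole2, Rfc3, Lig1, Uhrf1 and E2f2, and 5 of them held 2 or more matches. The median GC content of the windows was 59.2% for members and 60.7% for all tested genes.

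The 3 other lists of cell cycle genes had their own pattern of motifs. E2F matches were found in 14 of 51 other replication genes (27.5%), 2 of 24 mitosis genes (8.33%) and 3 of 14 regulators of G1 and S entry (21.4%). The CHR element, searched as TTTGAA on either strand and best known from genes of G2 and mitosis, was found in 6 of 40 members (15%), 12 of 51 other replication genes (23.5%), 16 of 24 mitosis genes (66.7%) and 2 of 14 regulators of G1 and S entry (14.3%), against 1275 of 9006 tested genes (14.2%). CCAAT on either strand was found in 25 of 40 members (62.5%), 24 of 51 other replication genes (47.1%), 17 of 24 mitosis genes (70.8%) and 8 of 14 regulators (57.1%), against 3885 of 9006 tested genes (43.1%). A match describes the letters of the window and is not evidence of binding.

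**Figure D1:**
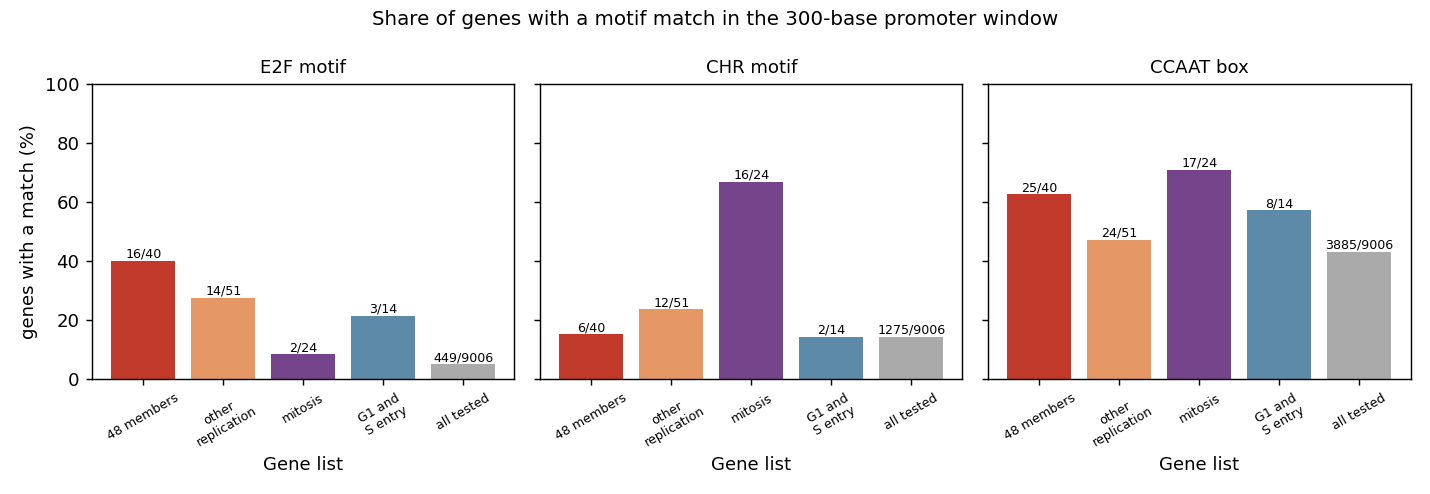
Percentage of genes with at least 1 match to the E2F, CHR or CCAAT letters in the 300-base promoter window, for the 48 members, 3 other cell cycle lists and all tested genes; the fractions above the bars are genes with a match over genes with a window. E2F letters stood in 16 of 40 members and CHR letters in 16 of 24 mitosis genes.

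Levels between genes were compared per length, as CPM per kilobase (kb) of the transcript counted. Pcna, the sliding clamp, was far above the rest, at 211 ± 9.11 CPM per kb in WT anti-CD40L, 189 ± 3.37 in libraries labelled KO and 192 ± 8.89 in WT isotype (SD, n = 3 each). The MCM ring subunits were high as well, and in WT isotype Mcm2 to Mcm7 had 47.3, 36.0, 30.9, 35.8, 56.4 and 33.8 CPM per kb. Pold2, an accessory subunit of polymerase delta, and Rpa1, of the complex that coats single-stranded DNA, lay within that range at 44.8 ± 4.63 and 33.1 ± 0.423 CPM per kb in WT isotype.

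At the other end, Mcm10, a factor that helps the CMG helicase fire, was lowest in every group, at 0.264 ± 0.174 CPM per kb in WT anti-CD40L, 0.135 ± 0.0832 in libraries labelled KO and 0.0870 ± 0.0262 in WT isotype. It rested on 2 to 16 counts per library, and Cdc6, the licensing factor next above it, on 3 to 18. Tk1, thymidine kinase, had 10 to 25 counts per library and 1.79 ± 1.33 CPM per kb in WT anti-CD40L, 0.995 ± 0.0713 in libraries labelled KO and 0.759 ± 0.0622 in WT isotype.

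Partners in a complex were not always level with each other. In ORC, Orc2 and Orc1 stood at a ratio per length of 22.1 ± 5.69 in WT anti-CD40L, 22.5 ± 5.52 in libraries labelled KO and 28.3 ± 6.15 in WT isotype (SD, n = 3 each). The large and small subunits of ribonucleotide reductase, Rrm1 and Rrm2, stood at 14.5 ± 3.64 in WT anti-CD40L, 13.9 ± 1.37 in libraries labelled KO and 17.5 ± 5.24 in WT isotype. For these pairs the groups overlapped. In GINS, the ratio of Gins4 to Gins2 was 13.4, 12.8 and 12.2 in WT anti-CD40L, 18.8, 16.3 and 19.4 in libraries labelled KO and 20.7, 21.2 and 17.5 in WT isotype, so that WT anti-CD40L lay below both other groups without overlap. Mcm6 and Mcm4 were closer to each other, at 1.69 ± 0.24 in WT anti-CD40L, 1.72 ± 0.114 in libraries labelled KO and 1.84 ± 0.201 in WT isotype. These ratios are descriptions of 6 pairs that were computed, and the pairs of primase and polymerase alpha subunits overlapped between groups as well.

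**Figure D2:**
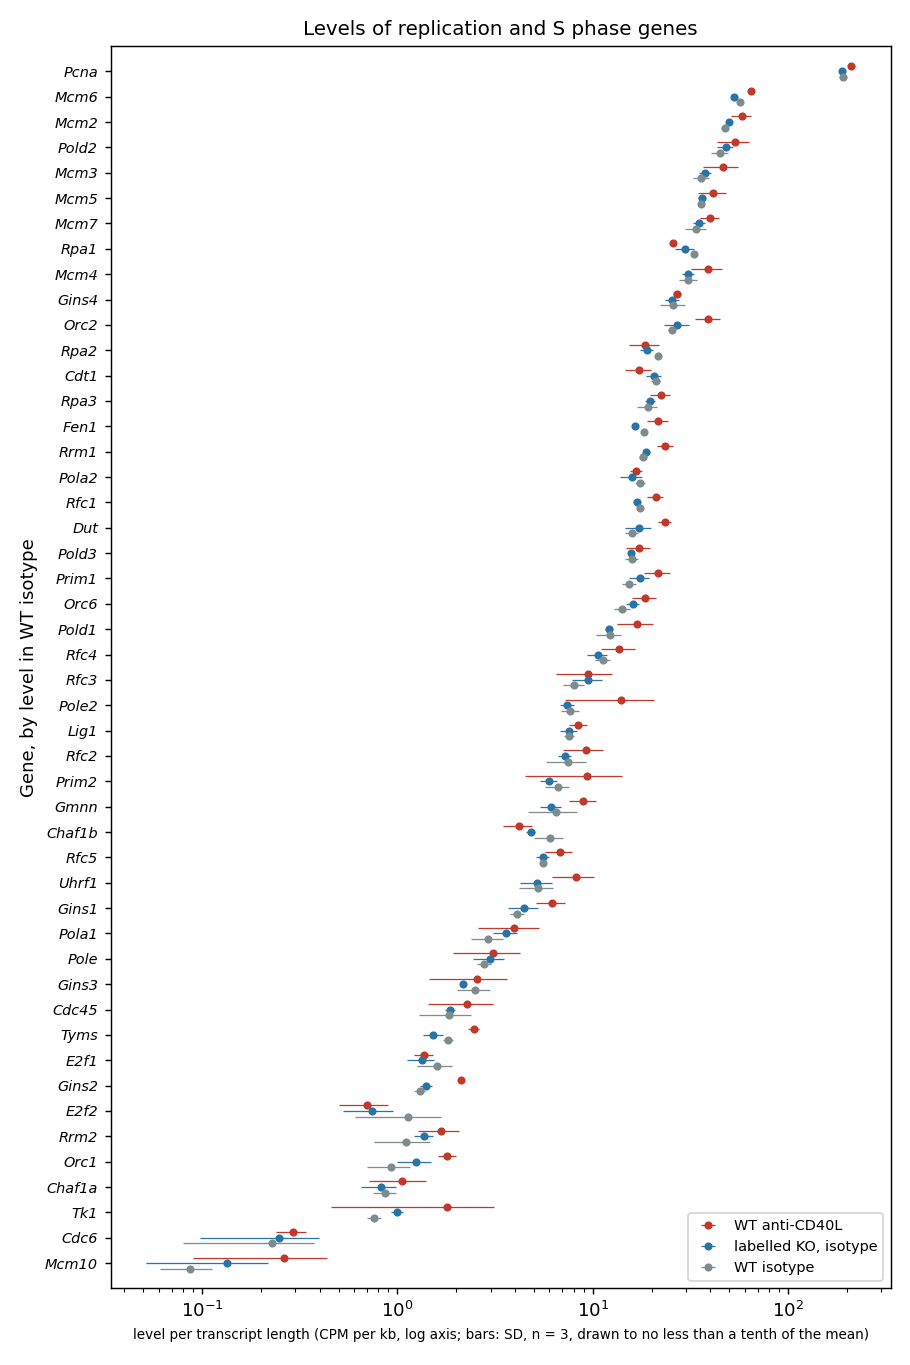
Level of each of the 48 genes in CPM per kb of transcript on a log axis, as mean and SD of 3 libraries in WT anti-CD40L, libraries labelled KO and WT isotype, ordered by the level in WT isotype. Pcna is highest in all 3 groups, Mcm6 and Mcm2 follow, and Cdc6 and Mcm10 are lowest.

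The first comparison asks what binding CD40L with a plate-coated antibody changes in stimulated wild-type cells. Replication genes leaned upward on anti-CD40L, by small amounts. Orc2, Prim1, Rrm1 and Dut rose, Rpa1 fell, and the other 43 did not pass the test. The 5 called genes are 10.4% of the members, beside 9.37% of all tested genes, which is near the background. By direction, 2.91% of all genes were called higher and 6.46% lower, so that 4 of the 5 member calls were in the direction that is rarer across all genes. The log2 fold change was above 0 for 40 of 48 members (83.3%), against 48.2% of all genes, and its median was 0.29 over the members and -0.01 over all genes, with a range from -0.72 to 1.48 among members. Before adjustment, 20 members had p below 0.05, 17 of them higher, against 26.4% of all genes. The 3 WT anti-CD40L libraries lay above all 3 WT isotype libraries for 18 members, against 15.4% of all genes, and below them for 3, against 17.2% of all genes. The count of 5 calls became 1 without WT anti-CD40L replicate 1 or WT isotype replicate 1 or 3, 2 without WT isotype replicate 2 and 11 without WT anti-CD40L replicate 3.

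In the sum over the 48 genes, WT anti-CD40L libraries had 2798, 2474 and 2603 CPM, those labelled KO 2207, 2282 and 2214 CPM, and WT isotype 2286, 2225 and 2240 CPM. All WT anti-CD40L libraries were above all libraries of the other groups. Replicate 1 of WT anti-CD40L was the highest of the 9 libraries for 24 members and replicate 3 for 14, whereas replicate 2 was highest for 1. The median log2 deviation of the members from their mean was 0.321, 0.075 and 0.12 in WT anti-CD40L, -0.09, -0.052 and -0.095 in libraries labelled KO and -0.067, -0.129 and -0.088 in WT isotype. Members also varied more among the WT anti-CD40L libraries, with a median coefficient of variation of 16.1%, than in libraries labelled KO, at 8.21%, or in WT isotype, at 9.48%. This was not computed for all tested genes, so the wider spread is not shown to be particular to the members. Over all genes, WT anti-CD40L replicate 3 stood apart on the first principal component, which held 54% of the variance. The median log2 fold change against WT isotype was 0.19 without WT anti-CD40L replicate 1.

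**Figure D3:**
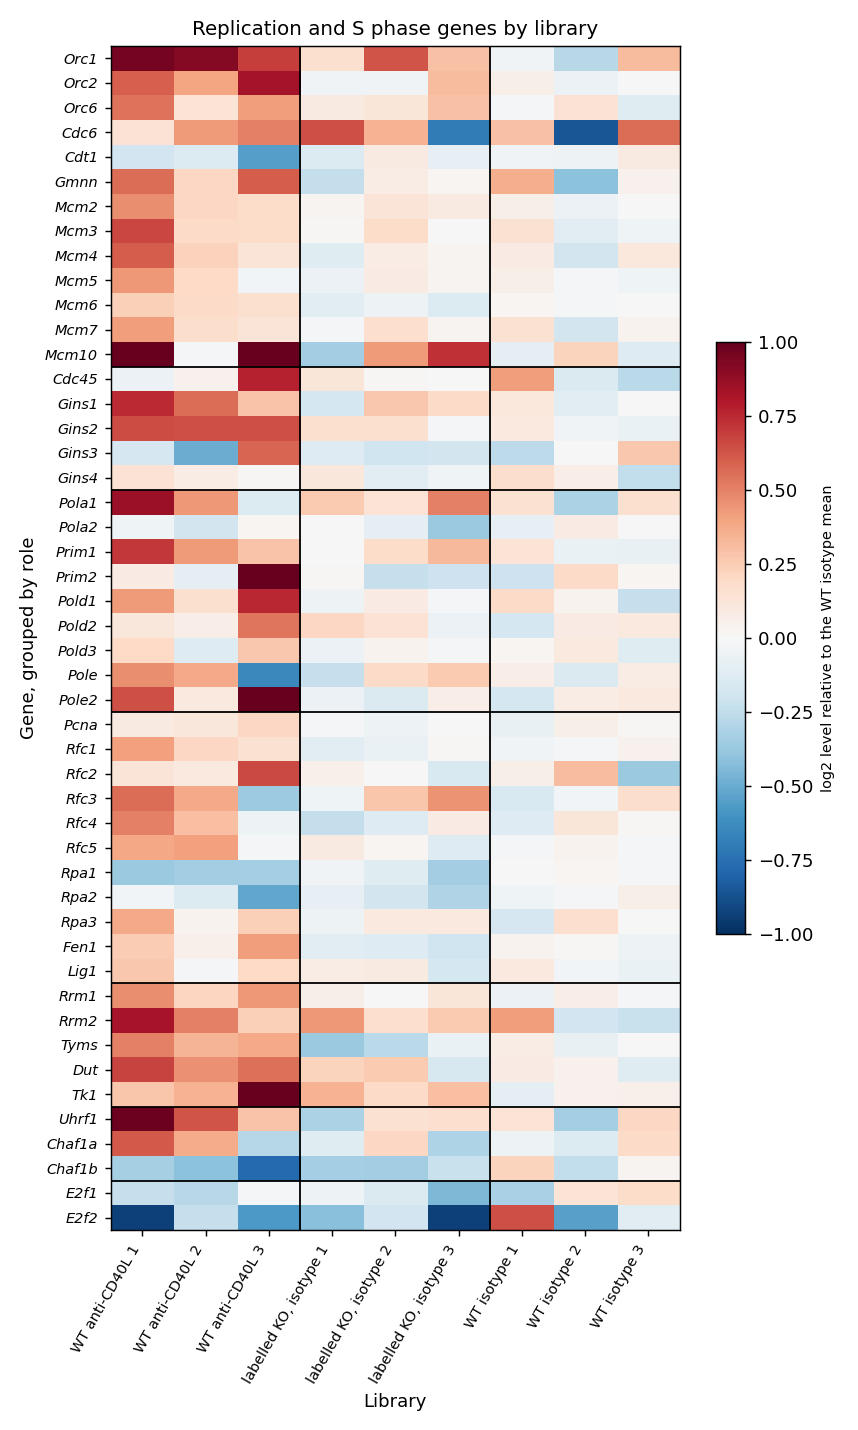
Level of each of the 48 genes, grouped by role, in each of the 9 libraries, as log2 of CPM relative to the WT isotype mean (red higher, blue lower, colours saturating at 1). The WT anti-CD40L columns are mostly red, most strongly replicate 1, while Rpa1, Chaf1b and E2f2 are blue there.

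**Figure D4:**
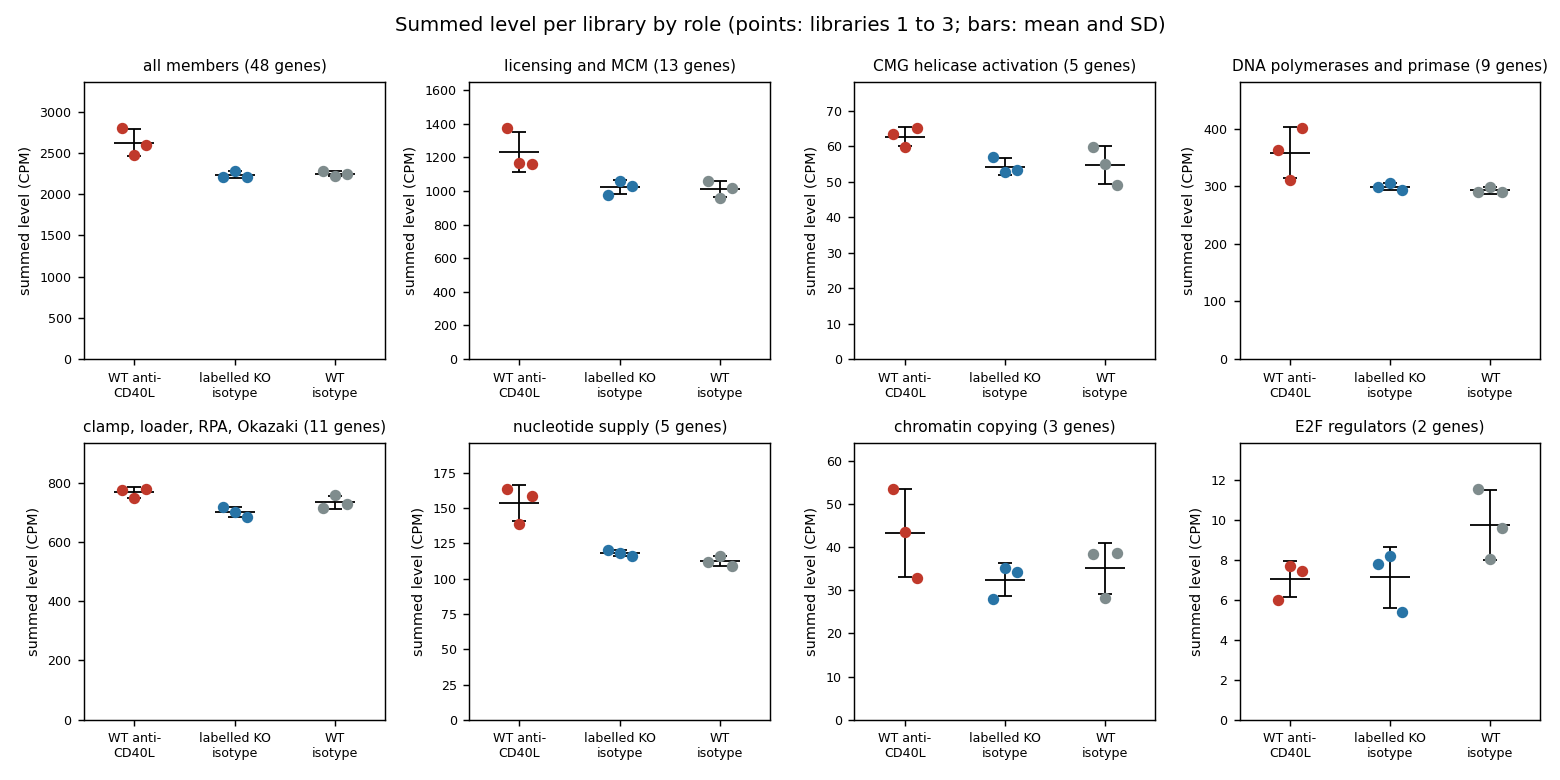
Summed CPM per library for all 48 genes and for each of the 7 roles; points are the libraries, long bars the mean and short bars the SD (n = 3). The 3 WT anti-CD40L libraries lie above both other groups for all members together, licensing and MCM, polymerases and primase, and nucleotide supply, and overlap with another group for the other 4 roles.

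Origin licensing and the MCM ring make up 13 members. Here 1 was called higher and none lower, with a median log2 fold change of 0.35 in WT anti-CD40L against WT isotype, and 12 of the 13 were above 0. Orc2, a subunit of the complex that marks origins, had 137, 119 and 161 CPM in WT anti-CD40L, 88.4, 88.2 and 113 in libraries labelled KO and 94.5, 86.8 and 90.5 CPM in WT isotype. WT anti-CD40L was above every other library and averaged 139 ± 21.0 CPM, against 90.6 ± 3.85 CPM in WT isotype (SD, n = 3 each), which is 1.53-fold (log2 0.62, SE 0.12; BH-adjusted p = 0.00729, edgeR). This call held under all 18 alternative settings, at BH-adjusted p values of 0.00255 to 0.0358 by edgeR when single libraries were left out. Cdc6, which brings the MCM ring to ORC, had 1.08, 1.42 and 1.53 CPM in WT anti-CD40L, 1.73, 1.32 and 0.380 in libraries labelled KO and 1.25, 0.290 and 1.61 CPM in WT isotype. At these few counts no difference could be resolved (log2 0.35, SE 0.68; BH-adjusted p = 0.786, edgeR).

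Cdt1, the partner of Cdc6 in loading, had the opposite sign to the other licensing genes. It had 40.4, 41.9 and 31.3 CPM in WT anti-CD40L, 41.8, 49.1 and 43.4 in libraries labelled KO and 44.9, 44.6 and 48.98 CPM in WT isotype. WT anti-CD40L lay below WT isotype without overlap and did not pass the test (log2 -0.27, SE 0.12; BH-adjusted p = 0.184, edgeR).

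Within the MCM ring all 6 subunits had a log2 fold change between 0.20 and 0.37, and none was called in WT anti-CD40L against WT isotype. Mcm2 had 220.4, 184 and 181 CPM in WT anti-CD40L, 162, 174 and 169 in libraries labelled KO and 166, 153 and 159 CPM in WT isotype, with no overlap (log2 0.29, SE 0.09; BH-adjusted p = 0.0534, edgeR). Mcm5 had 164, 139 and 118 CPM in WT anti-CD40L, 116, 128 and 123 in libraries labelled KO and 126, 119 and 118 CPM in WT isotype, and replicate 3 of WT anti-CD40L lay among the other groups (log2 0.22, SE 0.10; BH-adjusted p = 0.204, edgeR). Without that replicate both were called, at BH-adjusted p = 0.0364 for Mcm2 and 0.0432 for Mcm5. Mcm6, the ring subunit with the most counts, had 290.2, 281 and 274 CPM in WT anti-CD40L, 229, 237 and 223 in libraries labelled KO and 248, 244 and 245 CPM in WT isotype. The 3 groups did not overlap at all, with WT anti-CD40L highest and the libraries labelled KO lowest, and the step over WT isotype was small (log2 0.20, SE 0.07; BH-adjusted p = 0.0866, edgeR).

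The remaining licensing members, Orc1, Orc6, Gmnn and Mcm10, had log2 fold changes of 0.38 to 1.48 in WT anti-CD40L against WT isotype and none was called. Orc1 was at 5.43 ± 0.568 CPM in WT anti-CD40L, 3.73 ± 0.727 in libraries labelled KO and 2.81 ± 0.693 in WT isotype, without overlap between WT anti-CD40L and either other group. Gmnn encodes geminin, which binds Cdt1 and blocks licensing after S phase has begun. Summed over the 13 genes, the role had 1372, 1166 and 1161 CPM in WT anti-CD40L, 977.2, 1062 and 1029 in libraries labelled KO and 1059, 960.3 and 1016 CPM in WT isotype.

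The 5 genes that activate the CMG helicase gave no call, with a median log2 fold change of 0.25 in WT anti-CD40L against WT isotype. Cdc45 had 3.67, 3.96 and 6.88 CPM in WT anti-CD40L, 4.23, 3.88 and 3.82 in libraries labelled KO and 5.29, 3.42 and 3.10 CPM in WT isotype, so the groups overlapped (log2 0.25, SE 0.34; BH-adjusted p = 0.682, edgeR). The GINS subunits split. Gins1 and Gins2 lay above WT isotype without overlap, at log2 fold changes of 0.60 and 0.69 with SEs of 0.26 and 0.22, while Gins3 and Gins4 were at -0.01 and 0.07. No test of the difference between the subunits was made.

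Among the 9 polymerase and primase genes, 1 was called higher and none lower, and the median log2 fold change was 0.45. Prim1, the catalytic primase subunit that lays the RNA primers, had 39.97, 32.9 and 29.6 CPM in WT anti-CD40L, 24.3, 27.7 and 30.5 in libraries labelled KO and 26.8, 23.2 and 23.1 CPM in WT isotype. WT anti-CD40L lay above WT isotype, overlapped with the libraries labelled KO and was 1.41-fold the WT isotype level (log2 0.50, SE 0.15; BH-adjusted p = 0.0496, edgeR). This call sat at the threshold. It was lost, with BH-adjusted p values by edgeR of 0.196 and 0.0658 without WT anti-CD40L replicate 1 or 2, 0.0745, 0.163 and 0.152 without WT isotype replicate 1, 2 or 3, and 0.0817 without replicate 2 labelled KO. With the replicate number as a block it was lost as well, at 0.0733.

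Pola1, the catalytic subunit of polymerase alpha, had 28.4, 20.99 and 13.95 CPM in WT anti-CD40L, 18.5, 16.98 and 22.1 in libraries labelled KO and 17.2, 12.3 and 17.3 CPM in WT isotype. Replicate 3 of WT anti-CD40L lay within the WT isotype range, and the difference did not pass (log2 0.46, SE 0.23; BH-adjusted p = 0.222, edgeR). The other 7 genes ranged in log2 fold change from -0.07 for Pola2 to 0.82 for Pole2, an accessory subunit of polymerase epsilon. Pole2 and Prim2, the regulatory primase subunit, were highest in WT anti-CD40L replicate 3, at 36.3 and 29.4 CPM, while replicates 1 and 2 had 20.6 and 14.0 CPM of Pole2 and 13.8 and 12.2 CPM of Prim2. That replicate was the lowest of the 9 for Pole, the catalytic subunit of polymerase epsilon, at 12.6 CPM.

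The clamp, its loader, the RPA complex and the enzymes that join Okazaki fragments make up 11 members. None was called higher and 1 was called lower in WT anti-CD40L against WT isotype, and the median log2 fold change was 0.24. Pcna had 309, 315 and 336 CPM in WT anti-CD40L, 289, 281 and 290.4 in libraries labelled KO and 276, 303 and 293 CPM in WT isotype. WT anti-CD40L lay just above both other groups in every library, by a small step that did not pass (log2 0.14, SE 0.07; BH-adjusted p = 0.243, edgeR). Rfc1, the large subunit of the clamp loader, had 110.4, 95.9 and 92.5 CPM in WT anti-CD40L, 77.2, 79.05 and 83.6 in libraries labelled KO and 80.8, 82.5 and 85.7 CPM in WT isotype, again without overlap (log2 0.27, SE 0.09; BH-adjusted p = 0.0782, edgeR). Without WT anti-CD40L replicate 3 it was called, at BH-adjusted p = 0.0432 by edgeR.

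Rpa1, the largest subunit of the complex that coats single-stranded DNA, was the only member called lower. It had 129.95, 132 and 133 CPM in WT anti-CD40L, 164, 155 and 132 in libraries labelled KO and 168, 170.3 and 166 CPM in WT isotype. WT isotype was above every other library; WT anti-CD40L averaged 132 ± 1.55 CPM, against 168 ± 2.15 CPM in WT isotype (SD, n = 3 each), 1.28-fold lower (log2 -0.35, SE 0.09; BH-adjusted p = 0.0214, edgeR). The call was lost without WT anti-CD40L replicate 1, at BH-adjusted p = 0.0858, and without WT isotype replicate 1, 2 or 3, at 0.0844, 0.0736 and 0.0742 by edgeR. Rpa2, the middle subunit, had 38.4, 35.6 and 27.1 CPM in WT anti-CD40L, 36.96, 34.4 and 31.7 in libraries labelled KO and 38.1, 38.7 and 40.8 CPM in WT isotype (log2 -0.20, SE 0.13; BH-adjusted p = 0.356, edgeR). Rpa3, the smallest, was at log2 0.23 (SE 0.17). The estimates of the 3 subunits thus differed in sign, but only Rpa1 passed, and no test of the difference between subunits was made.

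Fen1, the nuclease that trims Okazaki fragment flaps, had 46.8, 40.7 and 52.4 CPM in WT anti-CD40L, 36.4, 35.7 and 34.1 in libraries labelled KO and 40.2, 39.5 and 37.7 CPM in WT isotype. The 3 groups did not overlap, with WT anti-CD40L highest and the libraries labelled KO lowest (log2 0.24 for WT anti-CD40L against WT isotype, SE 0.11; BH-adjusted p = 0.19, edgeR). Rfc2 to Rfc5, the small loader subunits, had log2 fold changes of 0.28 to 0.30, and Lig1, the ligase that seals the fragments, 0.15; none passed.

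Nucleotide supply had the highest median of the 7 roles, 0.57 on the log2 scale, and 2 of its 5 genes were called higher. Summed, these 5 genes had 163.4, 138.9 and 158.4 CPM in WT anti-CD40L, 120.4, 118 and 115.9 in libraries labelled KO and 112.1, 116 and 108.9 CPM in WT isotype. Rrm1 had 99.6, 83.98 and 97.8 CPM in WT anti-CD40L, 75.2, 72.2 and 78.4 in libraries labelled KO and 69.1, 75.7 and 71.7 CPM in WT isotype. WT anti-CD40L was above all other libraries, 1.30-fold over WT isotype (log2 0.38, SE 0.09; BH-adjusted p = 0.0229, edgeR). The call was lost without WT anti-CD40L replicate 1, at BH-adjusted p = 0.0959 by edgeR, and without WT isotype replicate 1 or 3, at 0.0878 and 0.0748.

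Dut, which keeps uracil out of DNA, had 49.5, 42.5 and 45.3 CPM in WT anti-CD40L, 35.98, 37.04 and 27.6 in libraries labelled KO and 32.6, 31.7 and 28.3 CPM in WT isotype. Again WT anti-CD40L was above all other libraries, 1.48-fold over WT isotype (log2 0.57, SE 0.13; BH-adjusted p = 0.0191, edgeR). It was lost without WT anti-CD40L replicate 1, at BH-adjusted p = 0.0908 by edgeR, and without WT isotype replicate 1, 2 or 3, at 0.052, 0.0591 and 0.0914. Rrm1 and Dut are the pair whose promoter windows, printed above, hold no E2F match. The Dut window lies inside the gene and leaves out the bases before the annotated gene start.

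Tyms, the thymidylate synthase, had 8.34, 7.40 and 7.64 CPM in WT anti-CD40L, 4.34, 4.68 and 5.47 in libraries labelled KO and 6.09, 5.42 and 5.74 CPM in WT isotype. No WT anti-CD40L library overlapped with either other group, at few counts (log2 0.44, SE 0.22; BH-adjusted p = 0.229, edgeR). Rrm2, the small reductase subunit, had 4.57, 3.55 and 2.87 CPM in WT anti-CD40L, 3.36, 2.71 and 2.93 in libraries labelled KO and 3.32, 2.0 and 1.95 CPM in WT isotype, with overlap between all groups (log2 0.61, SE 0.36; BH-adjusted p = 0.294, edgeR). Tk1 had 1.43, 1.52 and 4.78 CPM in WT anti-CD40L, 1.52, 1.32 and 1.46 in libraries labelled KO and 0.990, 1.14 and 1.15 CPM in WT isotype, with WT anti-CD40L replicate 3 far above the rest (log2 1.14, SE 0.54; BH-adjusted p = 0.2, edgeR).

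Genes that copy chromatin had fold changes of both signs, and none of the 3 was called. Uhrf1, which brings the maintenance DNA methyltransferase to newly copied DNA, had 36.8, 28.8 and 22.6 CPM in WT anti-CD40L, 14.7, 20.6 and 20.7 in libraries labelled KO and 20.3, 14.4 and 21.3 CPM in WT isotype. WT anti-CD40L lay above both other groups (log2 0.67, SE 0.21; BH-adjusted p = 0.0611, edgeR), and the gene was called without WT anti-CD40L replicate 3, at 0.0284, and without replicate 1 labelled KO, at 0.0466. Chaf1b, a subunit of the histone chaperone that follows PCNA, had 9.05, 8.52 and 6.50 CPM in WT anti-CD40L, 9.0, 8.93 and 9.80 in libraries labelled KO and 13.5, 9.60 and 11.7 CPM in WT isotype. It lay below WT isotype without overlap and did not pass (log2 -0.51, SE 0.21; BH-adjusted p = 0.134, edgeR), and its partner Chaf1a was at log2 0.33 (SE 0.30).

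The E2F activators were low and neither was called. E2f1 had 3.58, 3.45 and 4.20 CPM in WT anti-CD40L, 4.12, 3.81 and 2.99 in libraries labelled KO and 3.32, 4.75 and 4.93 CPM in WT isotype (log2 -0.22, SE 0.30; BH-adjusted p = 0.691, edgeR). E2f2 had 2.42, 4.26 and 3.25 CPM in WT anti-CD40L, 3.68, 4.39 and 2.42 in libraries labelled KO and 8.24, 3.33 and 4.70 CPM in WT isotype (log2 -0.72, SE 0.40; BH-adjusted p = 0.267, edgeR). For both genes all groups overlapped, and WT isotype replicate 1 was the highest library for E2f2.

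The fold changes of WT anti-CD40L against WT isotype were also sorted by the E2F letters in the promoter windows, as a description. The 16 with a match had a median log2 fold change of 0.26 and no call, the 24 without one 0.29 and all 5 calls, and the 8 with no window 0.40 and no call.

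Comparing WT anti-CD40L with the libraries labelled KO sets bound CD40L against its labelled loss. These groups differ in both genotype and plate antibody, so the parts of genotype and antibody cannot be told apart here. Orc2, Mcm6 and Rfc1 rose and no member fell, 6.25% of the members beside 6.83% of all tested genes, a share near the background; by direction, 1.79% of all genes were called higher and 5.04% lower. The log2 fold change was above 0 for 43 of 48 members (89.6%), against 48.6% of all genes, with a median of 0.30 over the members and -0.01 over all genes. Unadjusted p was below 0.05 for 18 members, 17 of them higher, against 22.2% of all genes. WT anti-CD40L lay above the libraries labelled KO without overlap for 18 members, against 10.3% of all genes, and below them for none, against 15.9% of all genes. This comparison and the first share the WT anti-CD40L libraries, so the comparisons are not independent. The count of 3 calls became 0 without replicate 1 or 2 labelled KO, 1 without WT anti-CD40L replicate 1 and 6 without WT anti-CD40L replicate 2, while the median log2 fold change stayed between 0.21 and 0.35.

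Orc2 was 1.44-fold over the libraries labelled KO (log2 0.52, SE 0.12; BH-adjusted p = 0.0183, edgeR). The call was lost without WT anti-CD40L replicate 3, at 0.053, and without replicate 1 or 2 labelled KO, at 0.075 and 0.0938. Mcm6 was 1.23-fold over them (log2 0.29, SE 0.07; BH-adjusted p = 0.0204, edgeR), and lost its call without WT anti-CD40L replicate 1, at 0.0788, and without replicate 1 or 2 labelled KO, at 0.06 and 0.0627. Rfc1 was 1.25-fold over them (log2 0.32, SE 0.09; BH-adjusted p = 0.0487, edgeR). It kept its call only without WT anti-CD40L replicate 3 or without replicate 3 labelled KO; leaving out any of the other 7 libraries gave adjusted p values of 0.0619 to 0.166, and the replicate block 0.0825.

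Fen1, at log2 0.39 (SE 0.11), Rrm1, at 0.32 (0.09), and Dut, at 0.45 (0.13), came close without passing, at BH-adjusted p values of 0.0564, 0.0582 and 0.0586 by edgeR. Without WT anti-CD40L replicate 2, Fen1 was called at 0.0278 and Rrm1 at 0.0292. Uhrf1, at log2 0.66 (SE 0.21; BH-adjusted p = 0.0753, edgeR), was called without WT anti-CD40L replicate 3, at 0.0325. Rpa1, lower in WT anti-CD40L than in WT isotype, was at log2 -0.19 here (SE 0.09; BH-adjusted p = 0.212, edgeR) and was called without replicate 3 labelled KO, at 0.0453. By role, nucleotide supply again had the highest median, 0.45, and the E2F regulators the lowest, -0.02. Members with E2F letters had a median of 0.20 over 16 genes and 1 call, Mcm6, and those without 0.31 over 24 genes and 2 calls.

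The comparison of libraries labelled KO with WT isotype asks what the labelled loss of CD40L changes in cultures on the same antibody. No member was called, and no gene at all: 0% of all tested genes, higher or lower, passed the edgeR test, with 649 genes (5.77%) and no member below an unadjusted p of 0.05. Among the alternatives, edgeR with no filter on low counts called 102 genes, DESeq2 44 and limma-voom with quality weights 38, none of them a member. The log2 fold change was above 0 for 23 members and below for 25 (47.9% above), against 50.6% above 0 over all genes. Its median was -0.01 over the members and 0 over all genes, and 42 of 48 members lay within 0.3 of 0. The SE per gene had a median of 0.16 and ran from 0.07 to 0.76, so for the least counted genes sizeable differences could not be resolved.

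Libraries labelled KO lay above WT isotype without overlap for 1 member, Tk1, against 7.61% of all genes, and below it for 4, against 7.62% of all genes. The 4 were Mcm6 (log2 -0.10, SE 0.07), Rpa1 (-0.16, 0.08), Rpa2 (-0.19, 0.13) and Fen1 (-0.15, 0.11). Rpa1 had the smallest adjusted p of the members, 0.881. Chaf1b was at log2 -0.33 (SE 0.20) and E2f2 at -0.64 (0.38), with BH-adjusted p values of 0.902 and 0.902 by edgeR. The smallest SEs belonged to the most counted genes, such as Pcna, at log2 -0.02 (SE 0.07).

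**Figure D5:**
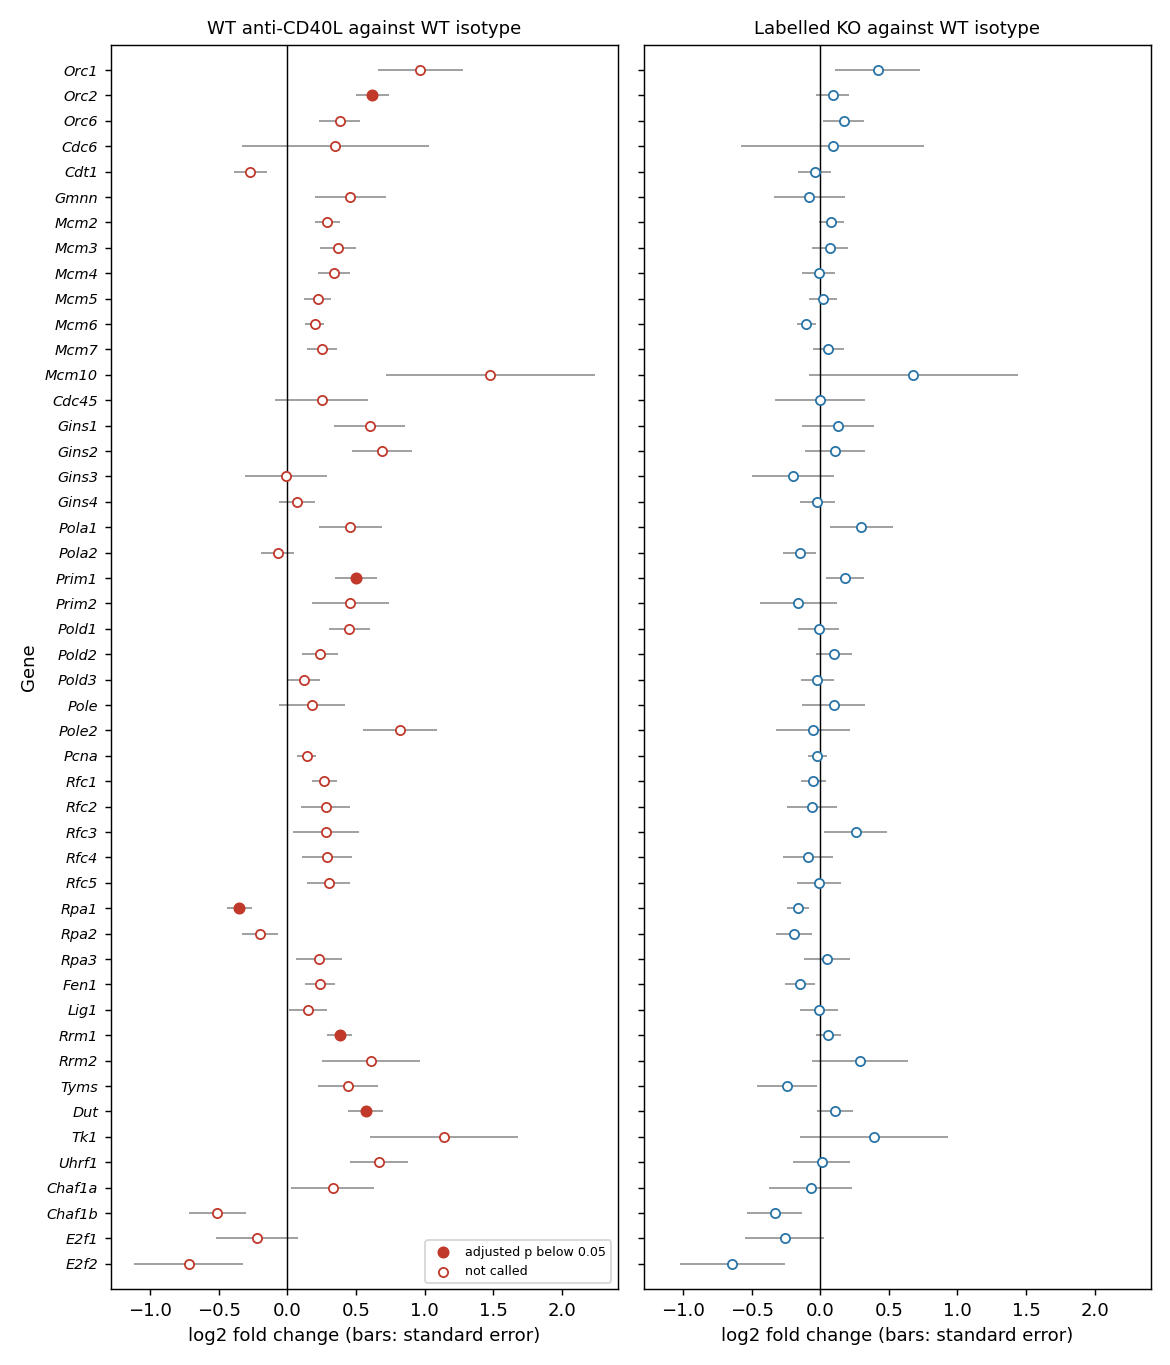
Log2 fold change of each of the 48 genes with its SE, for WT anti-CD40L against WT isotype (left) and libraries labelled KO against WT isotype (right); filled points are called at a BH-adjusted p below 0.05. On the left 40 of 48 points lie above 0 and 5 are filled, on the right 23 lie above 0 and none is filled; both panels share the WT isotype libraries.

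Other genes of the replication programme were counted from a list of 62 further genes, 59 of them tested. In WT anti-CD40L against WT isotype 4 rose and 4 fell, 13.6% beside the background of 9.37%, with a median log2 fold change of 0.18. This list leaned upward too, with 44 of 59 genes above 0 (74.6%), against 48.2% of all genes. WT anti-CD40L lay above WT isotype without overlap for 21 of them, against 15.4% of all genes, and below for 7, against 17.2%. The risers were led by Tfdp1, the dimer partner of the E2F factors (log2 0.37, SE 0.08; BH-adjusted p = 0.00966, edgeR), Atad5, which unloads PCNA (log2 0.80, SE 0.20; BH-adjusted p = 0.0231), and Topbp1, a scaffold of replication initiation and the checkpoint (log2 0.43, SE 0.11; BH-adjusted p = 0.03). Those that fell were led by Dck, the deoxycytidine kinase of nucleotide salvage (log2 -0.83, SE 0.18; BH-adjusted p = 0.0117), Rbl2, the retinoblastoma relative of resting cells (log2 -0.45, SE 0.11; BH-adjusted p = 0.0278), and Tfdp2, another E2F partner (log2 -0.65, SE 0.17; BH-adjusted p = 0.0295).

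Of these 6, Tfdp1 alone was called whichever library was left out, at BH-adjusted p values up to 0.0446 by edgeR. Without WT anti-CD40L replicate 1 the list had 1 gene higher and none lower, and without WT isotype replicate 1, 2 or 3 it had 2, 1 and 1 higher and none, 2 and 2 lower. Leaving out WT anti-CD40L replicate 2 gave 7 higher and 2 lower, and leaving out replicate 2 labelled KO gave 3 higher and 2 lower. In WT anti-CD40L against the libraries labelled KO, none rose and 1 fell, Shmt1, an enzyme of one-carbon metabolism (log2 -0.29, SE 0.08; BH-adjusted p = 0.0473, edgeR). When single libraries were left out it was called only without replicate 3 labelled KO, when 4 genes were called higher, and without WT anti-CD40L replicate 2 the list had 2 higher and none lower. In WT anti-CD40L against the libraries labelled KO, the called share of the list was 1.69%, beside 6.83% of all tested genes. There 43 of 59 genes were above 0 (72.9%), against 48.6% of all genes, with a median log2 fold change of 0.14. Genes called higher and lower there numbered 4 and 2 with no filter on low counts, 4 and 1 with DESeq2. With limma-voom with quality weights they numbered 6 and 3. No gene of the list was called in libraries labelled KO against WT isotype.

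Of 30 mitosis genes listed, 20 passed the filter on low counts, and 9 of the 30 were at 0 in WT anti-CD40L replicate 3. In WT anti-CD40L against WT isotype none was called higher and 1 lower, and the log2 fold changes ran both ways, from -1.69 to 0.90 with a median of 0.07. The called share was 5%, beside 9.37% of all tested genes. Unadjusted p was below 0.05 for 4 of the 20. The called gene was Cenpa, the centromeric histone (log2 -0.73, SE 0.18; BH-adjusted p = 0.0214, edgeR), and the call was lost without WT anti-CD40L replicate 1 or 2, at 0.0773 and 0.055, and without WT isotype replicate 2 or 3, at 0.0853 and 0.0921. Summed, the 30 genes had 140.7, 138.5 and 148.9 CPM in WT anti-CD40L, 136.9, 142.1 and 145.1 in libraries labelled KO and 142.4, 146.5 and 145.9 CPM in WT isotype, so the groups overlapped. No mitosis gene was called in either comparison with the libraries labelled KO. The difference between the lists was not tested.

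Of 19 regulators of G1 and S entry 17 were tested, and 3 rose and 3 fell in WT anti-CD40L against WT isotype, with log2 fold changes from -1.57 to 0.74 and a median of -0.05. The called share was 35.3%, beside 9.37% of all tested genes. Cdkn1b, the inhibitor p27 that keeps resting T cells out of the cycle, fell most, with 23.7, 25.05 and 17.01 CPM in WT anti-CD40L, 59.7, 55.1 and 55.8 in libraries labelled KO and 71.8, 58.6 and 67.3 CPM in WT isotype. WT anti-CD40L lay below both other groups (log2 -1.57 against WT isotype, SE 0.14; BH-adjusted p = 4.09e-05, edgeR), under every alternative setting. Against the libraries labelled KO it was at log2 -1.35 (SE 0.14; BH-adjusted p = 8.48e-05, edgeR), the only gene of this list called there. Cdkn2d, another cyclin-dependent kinase inhibitor, and Ccnd3, a G1 cyclin, also fell against WT isotype, at log2 -1.17 (SE 0.30) and -0.45 (0.12). Myc, the growth regulator, Cdk6, a G1 kinase, and Ccnd2, its cyclin partner, rose at log2 0.40 (SE 0.09), 0.74 (0.16) and 0.30 (0.08). Without WT anti-CD40L replicate 1, or without WT isotype replicate 1, the list had 1 gene higher and 1 lower, and without WT isotype replicate 2 none higher and 2 lower.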

How the data were processed

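The authors deposited 1 table of expected counts, not normalized, for 42361 RefSeq transcripts in 9 libraries; values are multiples of 0.5. Per the submitters' processing notes CASAVA 1.8.2, HISAT2 2.1.0 and the build mm10 were used. How reads were counted, whether strand was used and what was done with reads aligning to several places: not given in the sources used here. Paralogs, overlapping genes and antisense pairs are therefore uncertain. Symbols came from RefSeq (GRCm38.p6) for 42198 transcripts and from GENCODE vM21 for 70, and 93 had none. The transcript of highest total was kept for each gene (25160 genes), and fractions were rounded up. The planned test assumed whole counts, and rounded expected counts took their place.

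Genes were filtered with filterByExpr of edgeR 4.0.16 (11256 kept), scaled by TMM and tested by the quasi-likelihood F test with robust estimation on all 9 libraries, 1 term per group, in R 4.3.3. P-values were adjusted by Benjamini-Hochberg over all tested genes, at 0.05. The common biological coefficient of variation was 0.127. Alternatives used DESeq2 1.42.0, limma 3.58.1, other filters, scalings and roundings, a replicate block, and each library left out. The tests were checked on simulated data. Of changes of 1.5-fold, 49.3% were called in WT anti-CD40L against WT isotype. The share was 47.8% in libraries labelled KO against WT isotype and 42.2% in WT anti-CD40L against libraries labelled KO. Of changes of 4-fold, 90.9%, 95.4% and 97% were called in the same order. A gene that was not called may therefore still differ by 1.5-fold. Depth, 5316482 to 15565711 counts per library, limits genes with few counts. Libraries also deviated from the others of their group with transcript length. The rank correlation over 10222 genes ran from -0.28 in replicate 1 labelled KO to 0.26 in replicate 3 labelled KO. Over the 48 members it ran from -0.24 in WT isotype replicate 2 to 0.26 in replicate 2 labelled KO. Its part in the results was not tested.

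Groups and replicate numbers came from the sample titles. The labels do not state that replicate libraries are separate mice or separate cultures. The p-values therefore reflect library-to-library spread alone, and that spread may be technical. Levels per kb use the GENCODE vM21 transcript length, for Cdc6, Pold2, Pold3 and Rfc1 that of another transcript of the gene. The members and all lists were chosen with earlier results of these data known. Per-library values are given for members called in any comparison, the 5 of smallest p in each comparison and 15 of known role; other values named among the members were chosen after they were seen. From each other list up to 3 called genes per direction are named. Some genes of the lists are not named here.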

Additional observations from a re-analysis of the deposited data

How the results depend on the processing

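The call of Orc2 in WT anti-CD40L against WT isotype held under all 18 alternatives, and no called result changed direction under any of them; for the libraries labelled KO against WT isotype 0 members were called under every alternative. In WT anti-CD40L against WT isotype, the 5 called members became 11 with no filter on low counts, 13 with DESeq2 and 14 with limma-voom with quality weights, and 1 to 11 when single libraries were left out; all 5 were among the called members in each of these 3 settings. In WT anti-CD40L against the libraries labelled KO, the 3 became 8, 9 and 11 under the same settings, 1 when only the 2 groups were fitted, and 0 to 6 when single libraries were left out. The last 2 settings also used fewer libraries, and the cause of these changes was not tested. The members' median log2 fold change was 0.19 to 0.34 in the first comparison, 0.21 to 0.35 against the libraries labelled KO and -0.03 to 0.04 between libraries labelled KO and WT isotype when single libraries were left out.

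The replicate numbers were not taken as pairs in the main test. The correlations of same-numbered libraries' deviations were 0.18, 0.084 and 0.078 between WT anti-CD40L and WT isotype. They were -0.149, 0.062 and -0.054 between WT anti-CD40L and libraries labelled KO, and -0.106, -0.009 and -0.047 between libraries labelled KO and WT isotype. Libraries that correlated best with their own number were 6 of 6, 2 of 6 and 0 of 6 in these comparisons. Whether same-numbered libraries of WT anti-CD40L and WT isotype are pairs is therefore not settled. With the replicate block the called members numbered 4, 2 and 0. Members with few counts, such as Mcm10 and Cdc6, are limited by depth.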
